A study of Mus musculus with 9 samples.

Results

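The genes described here are the ATF4 targets and tRNA synthetases, 33 named mouse genes chosen from a list of reported targets of the transcription factor ATF4, its partner factors and the enzymes that charge tRNAs. A gene was a member if it was on the list and had a mean of at least 1 FPKM (sequenced fragments per kilobase of a gene's transcript, corrected for library size) over the 9 libraries. All 33 listed genes passed, of 24318 genes in the deposited tables, so no member was lost to the filter. By role they are 6 regulators, 6 stress effectors, 8 enzymes of amino acid and one-carbon metabolism, and a set of 13 made up of tRNA synthetases and the tRNA exporter Xpot.

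ATF4 is the transcription factor at the centre of the integrated stress response. When a kinase that senses amino acid shortage, unfolded protein, heme shortage or double-stranded RNA phosphorylates the translation factor eIF2 alpha, protein synthesis falls in general while ATF4 mRNA is translated more, so much of ATF4's control is not visible in its mRNA. ATF4 pairs with C/EBP family factors at a composite C/EBP-ATF element and raises genes for amino acid uptake, amino acid synthesis and tRNA charging, together with CHOP (the product of Ddit3), TRIB3 and GADD34 (the product of Ppp1r15a), which feed back on the response. Microglia, the resident macrophages of the brain, use the same pathway.

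The study exposed a cultured mouse cell line to brain-derived extracellular vesicles (BDEV), membrane particles released by cells, and sequenced polyA RNA. Its 9 libraries form 3 groups of 3: SE-BDEV, cells given vesicles named for status epilepticus, which is prolonged seizure activity; CON-BDEV, cells given control vesicles; and Vehicle, cells given no vesicles. The library names carry the words Pilo, Saline and CON for these groups in that order, and no label used here gives the dose, the exposure time, the vesicle donors or any genetic change in the cells. The labels do not say whether replicates are separate cultures, so p-values here measure only how far these libraries differ, a spread that may be technical.

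The labels conflict on the cells. BV2, a microglial line of the mouse, stands in the design text and in the names of the deposited tables. N2a, a neuroblastoma line of the mouse, stands as the cell line of each library. Of 10 microglia and macrophage markers 10 had a mean of at least 1 FPKM, among them Cd68 at 740 and Tyrobp at 712 FPKM. Of 10 neuroblastoma and neuron markers 2 did (Elavl4 at 3.92 and Gata3 at 3.34 FPKM), and Th, Dbh and Mycn were listed at 0 in every library. The markers present were thus mostly those of microglia and macrophages. Because the labels conflict, the cells are called by their group names here. Summed microglial markers ran from 3323 to 3713 FPKM in SE-BDEV, 3360 to 3598 in CON-BDEV and 3227 to 3329 in Vehicle, and the sum of neuronal markers from 6.10 to 8.48 FPKM over the libraries. The sum of the 4 astrocyte markers was 35.7 to 39.8 FPKM in SE-BDEV, 36.9 to 40.5 in CON-BDEV and 44.2 to 45.2 in Vehicle, nearly all of it Aldoc, with Aqp4 listed at 0. It is thus the level of 1 gene and no measure of astrocytes. The sum of the 3 endothelium markers, nearly all of it Flt1, was 42.5 to 47.0 FPKM in SE-BDEV, 35.8 to 44.2 in CON-BDEV and 35.2 to 40.3 in Vehicle. The part of these marker differences in the results below was not tested, and in bulk RNA fewer cells of a type and less RNA per cell cannot be told apart. The files hold no counts. From the steps between the lowest values, depth relative to Vehicle replicate 1 was lowest in CON-BDEV replicate 2 (0.877) and highest in Vehicle replicate 2 (1.01).

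In the ATF4 genes, 2 libraries stood apart from their groups, SE-BDEV replicate 3 and CON-BDEV replicate 1. Each was the lowest of its 3 libraries in 32 of the 33 members, where over all 10532 genes fitted SE-BDEV replicate 3 was lowest in 36.1% and CON-BDEV replicate 1 in 37.6%. Over all 10532 genes, after group means were removed, these 2 libraries correlated at r = 0.387. That was the highest value of any pair from different groups (next 0.344, Vehicle replicate 2 with SE-BDEV replicate 1). The relative depths of SE-BDEV replicate 3 and CON-BDEV replicate 1 were 0.985 and 0.937, within the range of the other libraries. They were picked out by the values of the members themselves, so results without them are given as descriptions beside the results with all libraries.

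The C/EBP-ATF element was searched for as the letters TGATGNAA, read on either strand (TTNCATCA on the other), in the window from 250 bases before to 50 after each gene's start in RefSeq (GRCm38.p6). A window was available for 28 members, and 10 of them held a match (35.7%), against 1219 of 27025 genes with a window (4.51%) and 217 of 8136 expressed genes with a window, those averaging 1 FPKM or more (2.67%). By role, a match lay in 2 of 6 regulators (Nupr1 and Trib3), 1 of 5 stress effectors (Chac1), 2 of 8 enzymes (Asns and Pycr1) and 5 of 9 in the set of synthetases and Xpot (Aars, Gars, Iars, Tars and Yars). The members were listed as reported ATF4 targets, so the share is not independent of how they were chosen, and a match describes letters, not a binding site. Eif4ebp1, Cars, Lars, Nars and Wars had no window. The matches before the start are printed from the gene's own strand, 5′ to 3′, with the match in capitals.
Nupr1: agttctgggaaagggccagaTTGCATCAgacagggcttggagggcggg
Chac1: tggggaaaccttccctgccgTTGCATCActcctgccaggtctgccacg
Asns: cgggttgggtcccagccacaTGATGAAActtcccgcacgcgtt
Pycr1: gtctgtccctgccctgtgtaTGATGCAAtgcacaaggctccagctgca
Aars: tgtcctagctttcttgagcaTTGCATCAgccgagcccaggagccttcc
Gars: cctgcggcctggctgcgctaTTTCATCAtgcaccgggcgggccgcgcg
Tars: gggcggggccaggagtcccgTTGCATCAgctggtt

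These stretches lie at chr7:126625553-126625600 (minus strand) for Nupr1, chr2:119351029-119351076 (plus strand) for Chac1, chr6:7693210-7693252 (minus strand) for Asns and chr11:120643824-120643871 (minus strand) for Pycr1. Those of the synthetases lie at chr8:111033710-111033757 (plus strand) for Aars, chr6:55037951-55037998 (plus strand) for Gars and chr15:11399659-11399693 (minus strand) for Tars. The match begins 110 bases before the start in Nupr1, 193 in Chac1, 23 in Asns, 103 in Pycr1, 112 in Aars, 30 in Gars and 15 in Tars. Trib3, Iars and Yars had a match after the start only. The sequence TTGCATCA was the same in Nupr1, Chac1, Aars and Tars. Read on the other strand it is TGATGCAA, the match in Pycr1.

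Most members were abundant mRNAs. Their median FPKM over the 9 libraries was 83.3, against 16.3 for all genes kept by the same minimum, and 14 members had at least 100 FPKM. Phgdh, the enzyme of the first step of serine synthesis from glycolysis, was the highest at 735 FPKM, and Stc2 (5.38), Chac1 (3.15) and Pycr1 (1.35) were the 3 members under 10 FPKM.

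Among the regulators, the mRNAs of Ddit3, Nupr1 and Trib3 stood well above every Vehicle library in 4 of the 6 vesicle libraries and near the Vehicle level in SE-BDEV replicate 3 and CON-BDEV replicate 1. With all libraries, limma called Atf5 and Nupr1 higher in SE-BDEV than in Vehicle, and called 0 of 6 in CON-BDEV. At an unadjusted p under 0.05 there were 4 of 6 in SE-BDEV (27.4% of all genes) and 4 of 6 in CON-BDEV (23.5%). Atf4 itself was among the 4 in each comparison, but its fold changes were smaller than those of Ddit3, Nupr1 and Trib3 and passed in neither after adjustment.

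Atf4 had 463, 412 and 333 FPKM in SE-BDEV, 335, 448 and 421 FPKM in CON-BDEV, and 350, 328 and 340 FPKM in Vehicle. Replicate 3 of SE-BDEV and replicate 1 of CON-BDEV lay inside the Vehicle range, and the other 4 vesicle libraries above it. The log2 fold change was 0.23 ± 0.10 (standard error) for SE-BDEV against Vehicle (limma adjusted p = 0.154) and 0.23 ± 0.09 for CON-BDEV against Vehicle (adjusted p = 0.173). All fold changes here are on the log2(FPKM + 1) scale, which understates those of low genes.

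Trib3 encodes a pseudokinase induced by ATF4 and CHOP that binds them in turn. It had 47.0, 38.8 and 14.2 FPKM in SE-BDEV, 14.6, 46.2 and 39.7 in CON-BDEV, and 18.3, 15.2 and 15.6 in Vehicle. In each vesicle group 2 libraries lay far above every Vehicle library and 1 lay below them all. With that spread the log2 fold change was 0.83 ± 0.34 for SE-BDEV (limma adjusted p = 0.152) and 0.84 ± 0.34 for CON-BDEV (adjusted p = 0.174), and neither passed.

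Ddit3 encodes CHOP, a C/EBP family factor linked to cell death under prolonged stress. It had 95.4, 69.8 and 32.2 FPKM in SE-BDEV, 30.2, 99.97 and 87.1 in CON-BDEV, and 44.0, 34.5 and 33.2 in Vehicle. The same 2 libraries were the low ones, both below the Vehicle range. The log2 fold changes were 0.68 ± 0.31 (limma adjusted p = 0.190) for SE-BDEV and 0.78 ± 0.37 (adjusted p = 0.239) for CON-BDEV. The authors listed Ddit3 and Mars at 1 shared locus, yet Mars stayed within 66.7 to 76.0 FPKM over the 9 libraries.

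Nupr1, a small stress-induced nuclear protein (chr7:133766760-133768984 in mm9), had 93.4, 86.2 and 51.2 FPKM in SE-BDEV, 47.1, 91.9 and 94.5 in CON-BDEV, and 47.1, 44.2 and 43.6 in Vehicle. All 3 SE-BDEV libraries lay above Vehicle, SE-BDEV replicate 3 by little, and CON-BDEV replicate 1 was level with the highest Vehicle library. Nupr1 rose in SE-BDEV by a log2 fold change of 0.72 ± 0.18 (limma adjusted p = 0.0330), and its value in CON-BDEV was 0.71 ± 0.22 (adjusted p = 0.0935). The call in SE-BDEV was lost when any library other than SE-BDEV replicate 3 was left out, with a highest adjusted p of 0.0982.

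Atf5, a factor related to ATF4 and translated under the same control, had 27.9, 23.4 and 21.5 FPKM in SE-BDEV, 19.6, 23.5 and 28.6 in CON-BDEV, and 19.2, 18.5 and 17.2 in Vehicle. Neither vesicle group overlapped Vehicle. Atf5 rose in SE-BDEV by 0.38 ± 0.08 (limma adjusted p = 0.0200), a call lost without Vehicle replicate 2 or Vehicle replicate 3 (highest adjusted p 0.0764), and its value in CON-BDEV was 0.35 ± 0.11 (adjusted p = 0.103). The listed locus (chr7:52067626-52104449 in mm9) names 5 genes, so reads of neighbours could be shared. Cebpg, a C/EBP factor that dimerises with ATF4, had 17.9 to 25.3 FPKM in SE-BDEV, 18.5 to 25.1 in CON-BDEV and 18.4 to 19.9 in Vehicle, and passed in neither comparison (limma adjusted p 0.304 and 0.265).

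**Figure D1:**
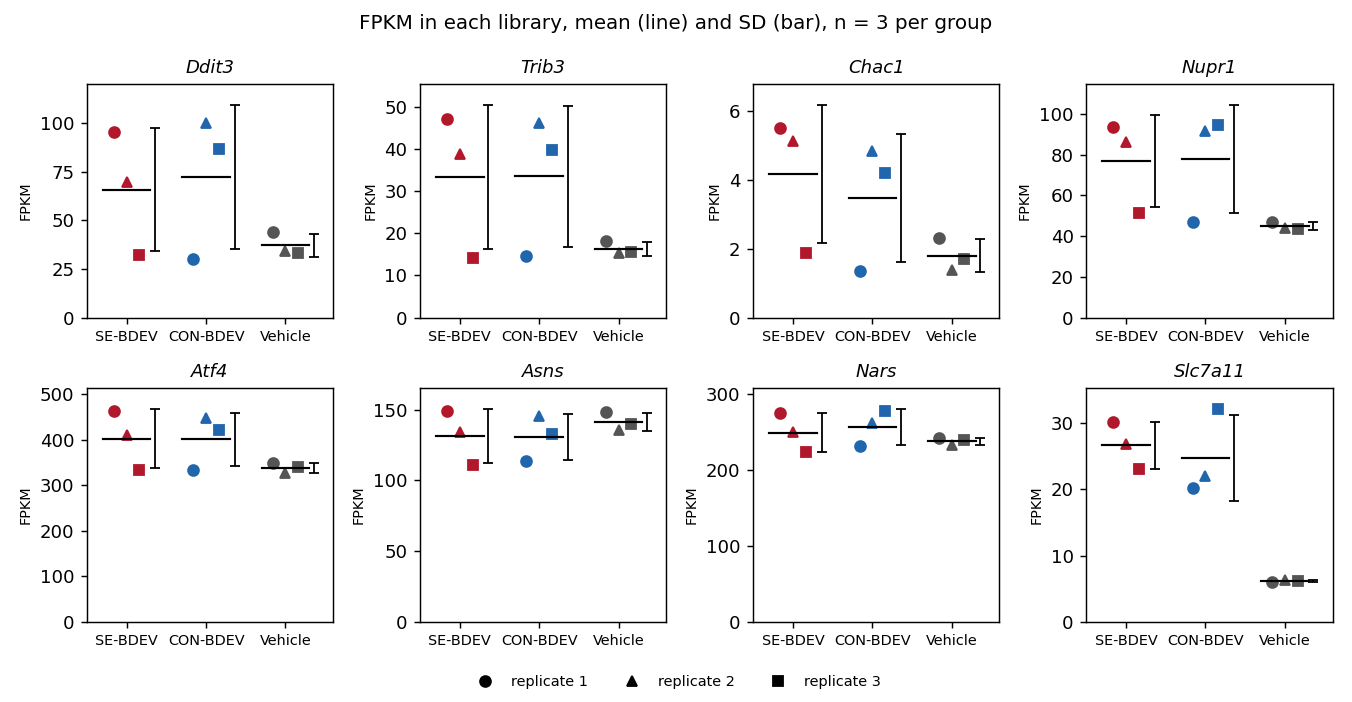
FPKM in each library (y axes, linear from 0) for 6 ATF4 genes, the synthetase Nars and the cystine transporter gene Slc7a11, by group (x axes), with a line at the mean and a bar of 1 SD, n = 3. In Ddit3, Trib3, Chac1 and Nupr1, SE-BDEV replicate 3 and CON-BDEV replicate 1 lie near the Vehicle libraries (Trib3 at 14.2 and 14.6 FPKM) and the other 4 vesicle libraries well above them (Trib3 at 38.8 to 47.0 FPKM), whereas all 6 vesicle libraries are above Vehicle in Slc7a11 (20.2 to 32.2 against 6.01 to 6.24 FPKM).

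The stress effectors showed a similar division of libraries: in 5 of 6 members, all but Eif4ebp1, replicates 1 and 2 of SE-BDEV and 2 and 3 of CON-BDEV lay above every Vehicle library. With all libraries, Stc2 rose in SE-BDEV and Ppp1r15a rose in CON-BDEV, and the other effectors did not pass in either comparison.

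Ppp1r15a encodes GADD34, the stress-induced subunit that directs protein phosphatase 1 to eIF2 alpha and so restores translation. It had 31.4, 25.4 and 18.02 FPKM in SE-BDEV, 19.7, 29.4 and 30.9 in CON-BDEV, and 17.8, 17.0 and 16.5 in Vehicle, with every vesicle library above every Vehicle library. The log2 fold change was 0.48 ± 0.15 (limma adjusted p = 0.0710) for SE-BDEV and 0.59 ± 0.14 (adjusted p = 0.0446) for CON-BDEV, where it was the only member past the threshold. That call was lost when any library other than CON-BDEV replicate 1 was left out (highest adjusted p 0.143). The listed locus, chr7:52728933-52781638 in mm9, names 4 genes.

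Stc2 encodes stanniocalcin 2, a secreted glycoprotein (chr11:31259441-31270061 in mm9). It had 7.09, 6.40 and 4.85 FPKM in SE-BDEV, 3.97, 6.71 and 6.94 in CON-BDEV, and 4.60, 3.79 and 4.06 in Vehicle. All 3 SE-BDEV libraries were above Vehicle, and CON-BDEV replicate 1 lay inside the Vehicle range. Stc2 rose in SE-BDEV by 0.45 ± 0.11 (limma adjusted p = 0.0318), a call lost without any library other than SE-BDEV replicate 3 (highest adjusted p 0.111), and had 0.39 ± 0.16 in CON-BDEV (adjusted p = 0.186).

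Chac1 encodes an enzyme that degrades glutathione and was the lowest of the effectors, with 5.52, 5.14 and 1.87 FPKM in SE-BDEV, 1.35, 4.85 and 4.21 in CON-BDEV, and 2.31, 1.37 and 1.70 in Vehicle. Both vesicle groups overlapped Vehicle through 1 library each. Its log2 fold changes of 0.81 ± 0.27 in SE-BDEV (limma adjusted p = 0.0883) and 0.58 ± 0.30 in CON-BDEV (adjusted p = 0.273) did not pass. Sesn2, a leucine-binding inhibitor of the growth kinase complex mTORC1, had 43.0, 41.2 and 26.6 FPKM in SE-BDEV, 25.2, 41.2 and 41.6 in CON-BDEV, and 27.9, 25.2 and 25.0 in Vehicle. In Sesn2 the 2 low vesicle libraries lay within the Vehicle range, and the log2 fold changes were 0.46 ± 0.15 (limma adjusted p = 0.0788) and 0.42 ± 0.16 (adjusted p = 0.161) for SE-BDEV and CON-BDEV against Vehicle.

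Ddit4 and Eif4ebp1 encode other brakes on mTORC1 signalling, REDD1 and the eIF4E-binding protein 4E-BP1. Ddit4 had 30.7 to 40.4 FPKM in SE-BDEV, 29.7 to 43.0 in CON-BDEV and 34.8 to 37.3 in Vehicle, with SE-BDEV replicate 3 and CON-BDEV replicate 1 below every Vehicle library and the other 4 vesicle libraries above. Eif4ebp1 had 152 to 201 FPKM in SE-BDEV, 142 to 178 in CON-BDEV and 145 to 159 in Vehicle. Neither passed in either comparison (limma adjusted p 0.258 to 0.952).

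The amino acid and one-carbon enzymes had no member past the threshold in either comparison. By limma 1 of 8 (Pycr1) had an unadjusted p under 0.05 in SE-BDEV (27.4% of all genes) and 0 of 8 in CON-BDEV (23.5%). Asns, asparagine synthetase and a standard reporter of ATF4 activity, had 149, 134 and 111 FPKM in SE-BDEV, 113, 146 and 133 in CON-BDEV, and 149, 135 and 140 in Vehicle. The highest vesicle library was level with the highest Vehicle library, and SE-BDEV replicate 3 and CON-BDEV replicate 1 were the lowest of the 9. Its log2 fold change was -0.11 ± 0.09 in SE-BDEV (limma adjusted p = 0.446) and -0.12 ± 0.08 in CON-BDEV (adjusted p = 0.418).

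Of the 3 enzymes that make serine, Phgdh had 685 to 784 FPKM in SE-BDEV, 722 to 788 in CON-BDEV and 704 to 736 in Vehicle. Psat1, the aminotransferase of the pathway, had the smallest spread of the members in both vesicle groups, with 340 to 358 FPKM in SE-BDEV, 352 to 362 in CON-BDEV and 345 to 351 in Vehicle. Psph, the phosphatase that completes serine, had 18.4 to 24.3 FPKM in SE-BDEV, 17.8 to 26.5 in CON-BDEV and 20.5 to 23.4 in Vehicle. The groups overlapped in each of the 3 genes, except that CON-BDEV lay just above Vehicle in Psat1.

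Mthfd2 and Shmt2 pass one-carbon units from serine to folate in mitochondria. Mthfd2 had 137, 126 and 98.3 FPKM in SE-BDEV, 102, 137 and 131 in CON-BDEV, and 120, 110 and 111 in Vehicle, which is the pattern of the regulators at a smaller size. Shmt2 had 190 to 224 FPKM in SE-BDEV, 197 to 213 in CON-BDEV and 210 to 226 in Vehicle. The proline enzymes Aldh18a1 and Pycr1 had no higher mean in vesicle libraries: Aldh18a1 averaged 89.9 ± 9.32 FPKM in SE-BDEV, 89.5 ± 9.63 in CON-BDEV and 92.2 ± 1.43 in Vehicle (SD, n = 3 each). Pycr1 averaged 1.13 ± 0.10, 1.36 ± 0.33 and 1.54 ± 0.12 FPKM in the same order, with SE-BDEV below every Vehicle library and a log2 fold change of -0.26 ± 0.08 (limma adjusted p = 0.0744).

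The tRNA synthetases and Xpot also had 0 of 13 members past the threshold by limma in SE-BDEV (11.9% of all genes) and 0 of 13 in CON-BDEV (5.67%). At an unadjusted p under 0.05 the synthetases and Xpot had 0 of 13 in both (27.4% and 23.5% of all genes). The synthetases join each amino acid to its tRNA, mainly in the cytosol. Nars, for asparagine, had 274, 250 and 223 FPKM in SE-BDEV, 231, 261 and 277 in CON-BDEV, and 241, 233 and 239 in Vehicle. Aars, for alanine, had 125, 110 and 88.6 FPKM in SE-BDEV, 92.4, 116 and 116 in CON-BDEV, and 106, 103 and 103 in Vehicle. Cars, for cysteine, had 64.8, 58.5 and 49.3 FPKM in SE-BDEV, 47.3, 62.2 and 63.6 in CON-BDEV, and 55.5, 51.3 and 52.8 in Vehicle. In all of these 4 vesicle libraries lay above the Vehicle range and SE-BDEV replicate 3 and CON-BDEV replicate 1 below it, so that the means differed little: the log2 fold changes lay between 0.04 (Aars, SE-BDEV) and 0.11 (Nars, CON-BDEV), with limma adjusted p from 0.341 to 0.827.

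The remaining synthetases also had small fold changes. In Sars, Gars, Lars, Iars and Mars, SE-BDEV replicate 3 and CON-BDEV replicate 1 again lay below every Vehicle library. Sars, for serine, had 142 to 176 FPKM in SE-BDEV, 147 to 172 in CON-BDEV and 164 to 173 in Vehicle, and Gars, for glycine, 182 to 221, 182 to 216 and 198 to 213 FPKM in the same order. Lars, for leucine, had 72.5 to 84.1 FPKM in SE-BDEV, 75.2 to 88.7 in CON-BDEV and 84.9 to 87.8 in Vehicle, with all SE-BDEV libraries just below Vehicle (log2 fold change -0.11 ± 0.06, limma adjusted p = 0.231). Xpot, which carries tRNAs out of the nucleus, had 45.8 to 50.7 FPKM in SE-BDEV, 46.3 to 51.0 in CON-BDEV and 45.1 to 45.9 in Vehicle. Eprs, Iars, Mars, Tars, Wars and Yars, for glutamate and proline, isoleucine, methionine, threonine, tryptophan and tyrosine, had log2 fold changes from -0.06 to 0.06 in SE-BDEV and -0.03 to 0.10 in CON-BDEV.

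**Figure D2:**
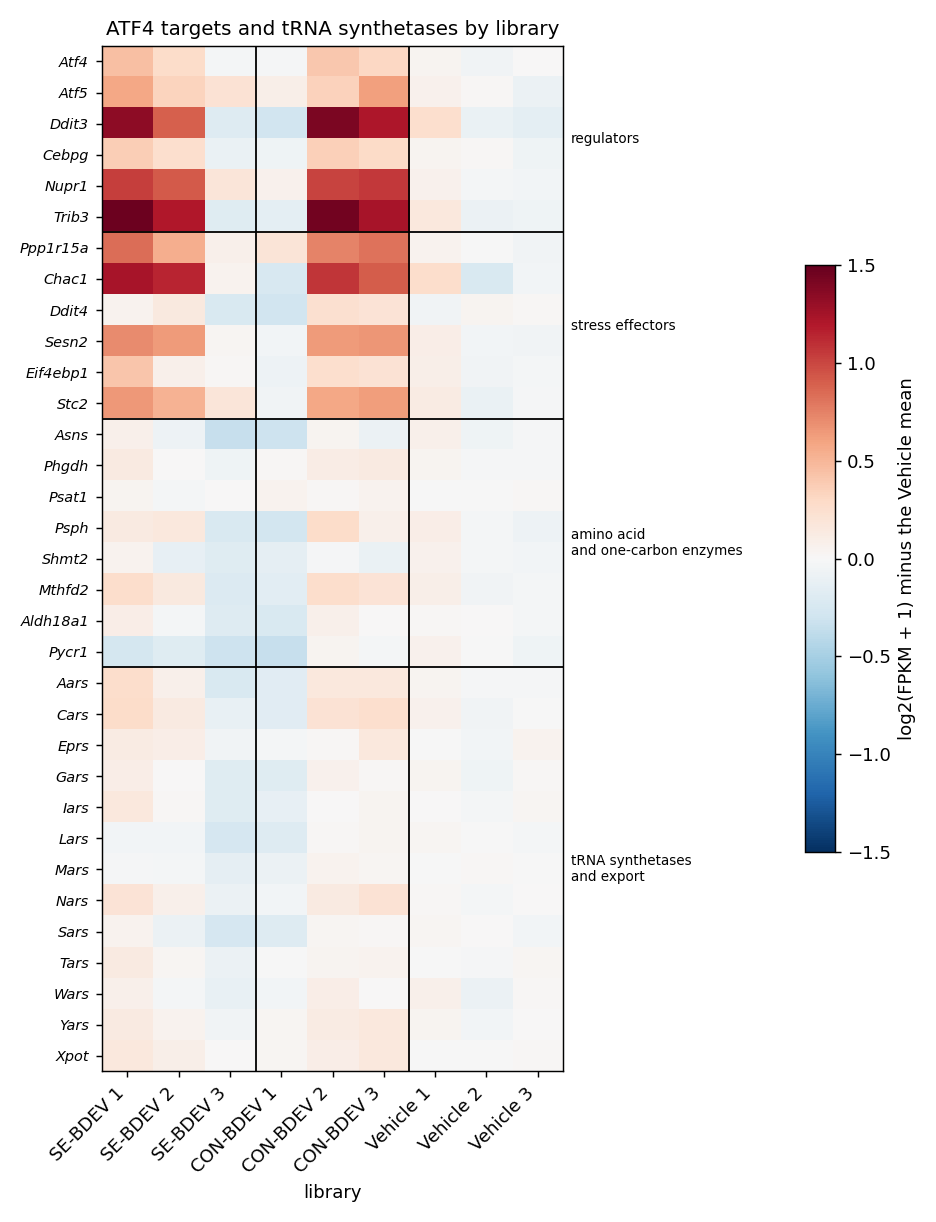
Log2(FPKM + 1) of each member (rows, grouped by role) in each library (columns: SE-BDEV, CON-BDEV, Vehicle), minus the Vehicle mean, with red above and blue below it. SE-BDEV replicates 1 and 2 and CON-BDEV replicates 2 and 3 are red in the regulators (medians of 0.62 to 0.84), and SE-BDEV replicate 3 and CON-BDEV replicate 1 are pale blue in most enzymes and synthetases (medians of -0.20 to -0.09).

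Across the module, the libraries took a similar order in most members. The 12 regulators and stress effectors lay above all 3 Vehicle libraries in 12 of 12 genes in SE-BDEV replicate 1, 11 of 12 in SE-BDEV replicate 2, and 12 of 12 in CON-BDEV replicates 2 and 3. Over all genes the shares above Vehicle in these libraries were 36.6%, 33.4%, 34.7% and 40.0%. In SE-BDEV replicate 3 this held for 4 of 12 (33.5% of all genes) and in CON-BDEV replicate 1 for 3 of 12 (36.1%), so neither stood above the share over all genes. The 21 enzymes, synthetases and Xpot lay below all 3 Vehicle libraries in 19 of 21 genes in SE-BDEV replicate 3 and in 14 of 21 in CON-BDEV replicate 1, against 35.5% and 33.5% of all genes in these libraries. In the other vesicle libraries 0 to 8 of the 21 lay below. SE-BDEV replicate 3 and CON-BDEV replicate 1 were picked out by the values of these same members. These counts therefore describe that division and are no test of it, and genes of 1 library are not independent.

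Within SE-BDEV, replicate 1 was the highest library in 29 of 33 members, and within Vehicle replicate 1 was the highest in 26 of 33, where over all genes each was highest in 37.5% and 34.8%. The spread of the members is set beside that of all genes as a description. The median SD of log2(FPKM + 1) over the 33 members was 0.185 in SE-BDEV, 0.182 in CON-BDEV and 0.054 in Vehicle, and over all genes 0.0648, 0.0777 and 0.05 in the same order. The regulators had median SDs of 0.354, 0.412 and 0.0671.

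Against all genes, 3 of 33 members were called higher by limma in SE-BDEV than in Vehicle and 0 lower, where 6.76% of the 10535 genes tested were called higher and 5.14% lower (11.9% in all). In CON-BDEV 1 of 33 was called higher and 0 lower, where 3.81% of 10535 genes were called higher and 1.86% lower (5.67% in all). Both counts are close to the background. At an unadjusted p under 0.05 there were 9 of 33 members in SE-BDEV (27.4% of all genes) and 7 of 33 in CON-BDEV (23.5%). Libraries that did not overlap, with SE-BDEV higher, were found in 4 of 33 members (16.5% of all genes) and with SE-BDEV lower in 3 of 33 (16.3%), and in CON-BDEV in 5 of 33 higher (16.6%) and 0 of 33 lower (12.7%). The median log2 fold change of the 33 members was 0.05 in SE-BDEV and 0.09 in CON-BDEV, against 0.00 and 0.01 over all genes. By role it was 0.53 in SE-BDEV and 0.53 in CON-BDEV for the regulators, 0.46 and 0.40 for the stress effectors, -0.02 and -0.01 for the enzymes, and 0.02 and 0.03 for the synthetases with Xpot. Both comparisons use the same 3 Vehicle libraries.

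Without SE-BDEV replicate 3, limma called 12 of 33 members, all higher, where 7.38% of 10548 genes were called higher. These were 6 of 6 regulators, 4 of 6 stress effectors, Mthfd2 and Cars. Without CON-BDEV replicate 1 it called 16 of 33, all higher, where 6.52% of 10540 genes were, and these were 6 of 6 regulators, 6 of 6 stress effectors, Mthfd2, Aars, Cars and Nars. All 12 members of the SE-BDEV set were among the 16. The log2 fold changes were then 1.34 for Trib3 in SE-BDEV without replicate 3 and 1.34 in CON-BDEV without replicate 1, 1.12 and 1.31 for Ddit3, 1.19 and 0.99 for Chac1, and 0.98 and 1.04 for Nupr1. Atf4 had 0.36 and 0.36, and Asns 0.00 and -0.02. Each left-out library was the lowest of its group in nearly every member, so leaving it out had to raise these values.

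In the authors' deposited table of SE-BDEV over Vehicle, 5 of the 33 members had a q-value under 0.05, all higher (3.36% of genes with a q-value were), and in the authors' deposited table of CON-BDEV over Vehicle the same 5 did (2.76% of genes). They were Nupr1, Trib3, Chac1, Sesn2 and Stc2, each with q = 0.001963 in SE-BDEV and q = 0.002447 in CON-BDEV in the authors' deposited tables. The log2 fold change of Trib3 in the authors' deposited tables was 1.03 in both, computed there without a pseudocount. Cuffdiff, the program behind those tables, and limma on these values therefore shared Nupr1 and Stc2 in SE-BDEV and no member in CON-BDEV.

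**Figure D3:**
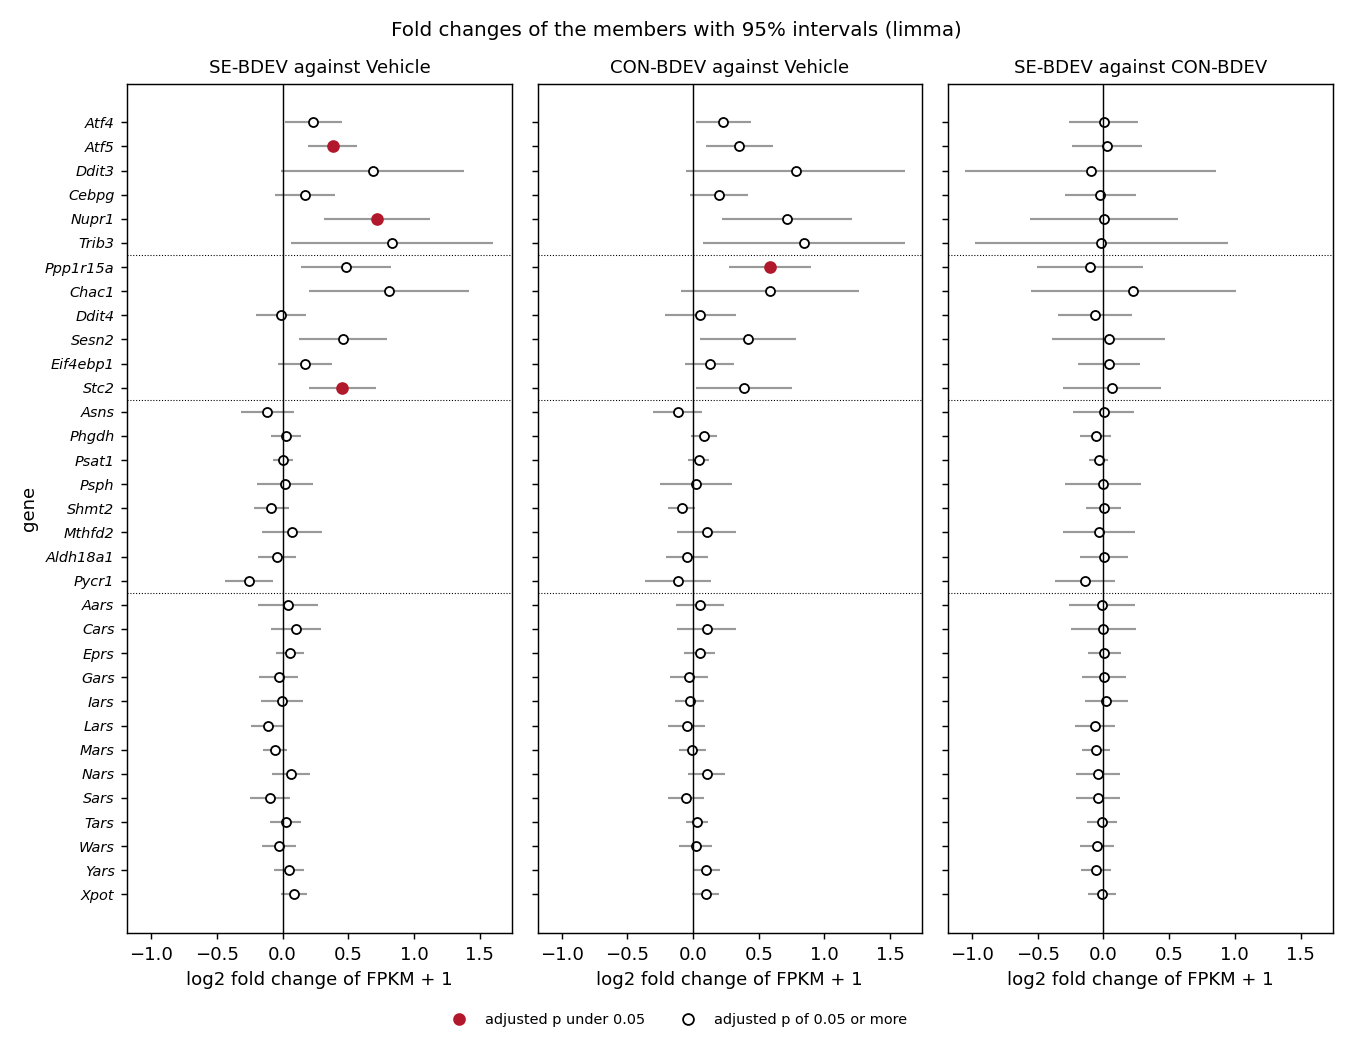
Log2 fold change of FPKM + 1 (x axes) with its 95% interval from limma for each member (y axis, grouped by role) in 3 comparisons. Filled points passed an adjusted p of 0.05: Atf5, Nupr1 and Stc2 in SE-BDEV against Vehicle, and Ppp1r15a in CON-BDEV against Vehicle. The widest intervals belong to Ddit3 and Trib3, and all intervals of SE-BDEV against CON-BDEV include 0.

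SE-BDEV and CON-BDEV, the comparison of vesicles named for status epilepticus with control vesicles, differed past the threshold in 0 of 33 members and in 0 of 10532 genes by limma (0.0%). At an unadjusted p under 0.05 there were 0 members and 509 genes (4.83%), and the libraries of the 2 groups failed to overlap in 0 members and in 7.94% of genes. The intervals of the difference give its bounds. For Trib3, with 14.2 to 47.0 FPKM in SE-BDEV and 14.6 to 46.2 in CON-BDEV, the log2 fold change was -0.02 with a 95% interval from -0.98 to 0.95. For Ddit3 it was -0.10 (-1.05 to 0.86), for Chac1 0.23 (-0.55 to 1.01), for Nupr1 0.00 (-0.56 to 0.57) and for Atf4 0.00 (-0.26 to 0.26). The steadier members were bounded more closely, at 0.00 (-0.23 to 0.23) for Asns, -0.04 (-0.21 to 0.13) for Nars and -0.04 (-0.11 to 0.04) for Psat1. Without both SE-BDEV replicate 3 and CON-BDEV replicate 1, an alternative added after the data were seen, limma again called 0 of 33 members.

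Other genes of the pathway were taken from lists by role. Over all genes, limma called 11.9% in SE-BDEV and 5.67% in CON-BDEV against Vehicle, the shares to set beside the calls below. Of 12 other cytosolic synthetases and scaffold proteins of their complex, limma called 0 in SE-BDEV and 0 in CON-BDEV against Vehicle (2 in each at an unadjusted p under 0.05, a threshold that 27.4% of all genes passed in SE-BDEV and 23.5% in CON-BDEV). Rars, for arginine, the highest of them, had 193 to 237 FPKM in SE-BDEV, 208 to 227 in CON-BDEV and 205 to 221 in Vehicle. In SE-BDEV replicate 3, 9 of these 12 lay below all Vehicle libraries, as did 12 of the 13 synthetases and Xpot, while in CON-BDEV replicate 1 it was 4 of 12 and 8 of 13. Of 17 mitochondrial synthetases 0 passed in SE-BDEV (3 at an unadjusted p under 0.05) and 1 in CON-BDEV, Fars2, for phenylalanine, with a log2 fold change of 0.37 ± 0.09 (limma adjusted p = 0.0497), and 7 of 17 had an unadjusted p under 0.05 there.

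Of 15 genes for the eIF2 kinases, eIF2, eIF2B and their regulators, Impact, an inhibitor of the amino acid-sensing kinase GCN2, passed in SE-BDEV (0.18 ± 0.05, limma adjusted p = 0.0427) and 0 passed in CON-BDEV. Over all genes, 6.76% were called higher in SE-BDEV. At an unadjusted p under 0.05 there were 3 of 15 in SE-BDEV (27.4% of all genes) and 4 of 15 in CON-BDEV (23.5%). Of 10 other bZIP factors, Atf6, a sensor of unfolded protein in the endoplasmic reticulum, passed in SE-BDEV (0.24 ± 0.07, limma adjusted p = 0.0464) and 0 passed in CON-BDEV (6 and 4 at an unadjusted p under 0.05, beside the same shares of all genes). Atf3, a stress-induced factor often grouped with CHOP, had 110 to 121 FPKM in SE-BDEV, 111 to 129 in CON-BDEV and 108 to 109 in Vehicle. Of 13 other enzymes of serine, proline and folate metabolism, limma called 0 in CON-BDEV against Vehicle (1 at an unadjusted p under 0.05). These single calls were fragile to the libraries used: Impact and Atf6 were lost without any library other than SE-BDEV replicate 3 (highest limma adjusted p 0.155 and 0.159), and Fars2 without CON-BDEV replicate 3 or any 1 Vehicle library (0.162).

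The last list held further reported ATF4 targets, mostly transporters and stress genes that answer to other factors as well. Of 17 that passed the FPKM minimum, out of 19 listed, limma called 6 higher in SE-BDEV (6.76% of all genes) and 6 higher in CON-BDEV (3.81%), and 0 lower in either. At an unadjusted p under 0.05 there were 11 of 17 in SE-BDEV (27.4% of all genes) and 10 of 17 in CON-BDEV (23.5%). Slc7a11, the cystine importer and also a target of the oxidant-response factor NRF2, had 30.2, 26.8 and 23.1 FPKM in SE-BDEV, 20.2, 22.0 and 32.2 in CON-BDEV, and 6.01, 6.24 and 6.15 in Vehicle. It rose by 1.95 ± 0.08 in SE-BDEV (limma adjusted p = 2.12e-06) and by 1.82 ± 0.14 in CON-BDEV (adjusted p = 0.000909). Unlike Trib3 or Ddit3, it lay far above every Vehicle library in SE-BDEV replicate 3 (23.1 FPKM) and in CON-BDEV replicate 1 (20.2 FPKM) as well. Each of these was still its lowest library within its group, the order seen in the members.

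Sqstm1, the autophagy receptor p62 and likewise an NRF2 target, had 195 to 217 FPKM in SE-BDEV, 188 to 231 in CON-BDEV and 132 to 138 in Vehicle. It lay above Vehicle in all 6 vesicle libraries, and was lowest in SE-BDEV replicate 2 and CON-BDEV replicate 2 of their groups. Sqstm1 rose by 0.58 ± 0.05 in SE-BDEV and 0.59 ± 0.07 in CON-BDEV (limma adjusted p 0.000104 and 0.00426). Slc38a2, another listed target called higher in both comparisons, also lay above Vehicle in all 6 vesicle libraries. Its values were 273, 241 and 228 FPKM in SE-BDEV, 233, 232 and 252 in CON-BDEV, and 190, 205 and 193 in Vehicle. Gadd45a, a growth arrest and DNA damage gene, had 24.9, 22.3 and 14.5 FPKM in SE-BDEV, 14.9, 25.7 and 29.3 in CON-BDEV, and 11.1, 11.7 and 10.5 in Vehicle. It lay above Vehicle in all 6 vesicle libraries but least in SE-BDEV replicate 3 and CON-BDEV replicate 1, as did Herpud1, a membrane protein of endoplasmic reticulum quality control, with 30.8, 30.4 and 20.1 FPKM in SE-BDEV, 22.2, 30.7 and 31.7 in CON-BDEV, and 19.5, 18.7 and 18.2 in Vehicle. Gadd45a rose by 0.80 ± 0.15 in SE-BDEV and 0.96 ± 0.20 in CON-BDEV (limma adjusted p 0.0118 and 0.0281), and Herpud1 by 0.48 ± 0.13 and 0.54 ± 0.11 (adjusted p 0.0479 and 0.0315). The calls of Slc7a11 and Sqstm1 in both comparisons and of Gadd45a in SE-BDEV held whichever library was left out. The call of Gadd45a in CON-BDEV was lost without CON-BDEV replicate 3 or any 1 Vehicle library (highest adjusted p 0.106), and that of Herpud1 without any library other than SE-BDEV replicate 3 (0.137) and other than CON-BDEV replicate 1 (0.113). The count of 6 further targets came to 3 (without Vehicle replicate 1) to 9 (without SE-BDEV replicate 3) in SE-BDEV. In CON-BDEV leaving out CON-BDEV replicate 3 or Vehicle replicate 1 or 3 gave 2, leaving out Vehicle replicate 2 gave 3, and leaving out CON-BDEV replicate 1 gave 11. Without a filter on low values the count was 2 in SE-BDEV and 2 in CON-BDEV, in the fit of all 9 libraries 3 in SE-BDEV, and with the number in the library names as a block 3 in CON-BDEV. With the replicate block 8 further targets were called in SE-BDEV, 7 of them higher. Between SE-BDEV and CON-BDEV limma called 0 genes of all these lists, with 0 further targets at an unadjusted p under 0.05 (4.83% of all genes).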

How the data were processed

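PolyA RNA of 9 libraries was prepared with a directional kit, per the labels' protocols. TopHat2, Cuffdiff and the build mm9 are named in the submitters' processing notes, and how strand was used in counting is not given in the sources used here. The authors deposited FPKM per gene and library, and Cuffdiff's log2 fold change, test score, p-value and q-value per gene. FPKM are printed as deposited, those of Vehicle from the table shared with CON-BDEV. The Vehicle columns of both tables differed by constant factors (1.00042, 1.00012 and 1.00078), which were used to join them. Ferritin genes with Cuffdiff's status for too many fragments were left out (2 genes with CON-BDEV, 1 with SE-BDEV). Listed starts were counted from 0, since end minus start equalled the RefSeq length in 8183 of 17958 loci, so 1 was added. Of the members, 7 shared a listed locus with another gene (Atf5, Ddit3, Ppp1r15a, Shmt2, Cars, Mars and Yars).

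Values were analysed as log2(FPKM + 1) in R 4.3.3 with limma 3.58.1 (mean-variance trend, 2-sided), keeping genes that averaged 1 FPKM or more in the fitted libraries. Each vesicle group was fitted with Vehicle in its own table, and SE-BDEV against CON-BDEV in a fit of all 9 libraries. P-values were adjusted over all genes (Benjamini-Hochberg) and called at 0.05. An exact permutation test of 3 libraries against 3 cannot go below p = 0.1. On simulated data, limma recovered 98% of genes changed 1.5-fold in SE-BDEV against Vehicle (8 false calls of 10335), 90% in CON-BDEV against Vehicle and 88% in SE-BDEV against CON-BDEV. The changed genes there were drawn at random from all genes, with independent noise. These shares do not apply to the members, whose median SD in SE-BDEV was 0.185 against 0.0648 over all genes, so a member without a call may still have changed.

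The members and lists were chosen with earlier results of these data known. All members are named, and of each other list the called genes with the largest changes (at most 4), or with no call the 2 highest by mean. A result among these other lists is not reported here. Replicate numbers were checked for pairing: libraries of the same number correlated at r = -0.264 to 0.194 after group means were removed, so no block was used. Alternatives were the pseudocount (0.1), the filter (none, or a mean of 5 FPKM), quantile normalization, blocks, leaving out each library and the joined fit.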

Additional observations from a re-analysis of the deposited data

How the results depend on the processing

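No called value reversed its sign under any alternative run. For SE-BDEV against Vehicle limma called 1253 genes and 3 members with all libraries. Without a filter on low values it called 726 genes and 0 members, and in the fit of all 9 libraries 830 genes and 0 members. Leaving out 1 library gave 501 to 1311 genes (501, 601 and 678 without Vehicle replicate 1, 2 and 3), and 0 members (without Vehicle replicate 2 or 3), 1 member (without Vehicle replicate 1 or SE-BDEV replicate 1 or 2) or 12 members (without SE-BDEV replicate 3). For CON-BDEV against Vehicle it called 597 genes and 1 member. Without a filter it called 112 genes and 0 members, with quantile normalization 0 members, and in the fit of all 9 libraries 0 members. Leaving out 1 library gave 84 to 1067 genes (1067, 905 and 133 without CON-BDEV replicate 1, 2 and 3, and 110, 84 and 121 without Vehicle replicate 1, 2 and 3) and 0 to 16 members, with 16 only without CON-BDEV replicate 1. Of the genes called, 401 of 597 were higher, and 301 of 550 after quantile normalization. For SE-BDEV against CON-BDEV it called 0 members in every alternative run, and 0 genes except that leaving out libraries gave 0 to 1 (1 without CON-BDEV replicate 1 or SE-BDEV replicate 2). Without both SE-BDEV replicate 3 and CON-BDEV replicate 1 it called 1 gene, lower. The causes of these changes were not tested.

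The replicate numbers did not pair the libraries: 3 of 9 resembled a library of the same number most. With the replicate block, limma called 6 members in SE-BDEV (adding Ppp1r15a, Chac1 and Sesn2), and in CON-BDEV 364 genes and 0 members. With the number in the library names as a block it called 275 genes and 0 members in CON-BDEV, and 4 members in SE-BDEV. SE-BDEV replicate 3 and CON-BDEV replicate 1 carry different numbers there. Their names share the letter C with that of SE-BDEV replicate 1, and whether this letter bears on the values was not tested.

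Precision rests on 3 libraries a group, and relative depth is known but not the counts behind each value. The standard errors against Vehicle were largest in Trib3 (0.34 in both comparisons) and Ddit3 (0.31 in SE-BDEV and 0.37 in CON-BDEV). FPKM cannot show a change in total RNA per cell.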
